A study of Mus musculus with 6 samples.

Results

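Intercalated disc junction genes are described here in mouse hearts that lack the splicing factor SRSF4 and in control hearts. The set holds 10 genes, picked by symbol from the 12824 genes of the deposited table, and all 10 were present: Dsg2, Dsc2, Dsp, Jup, Pkp2, Cdh2, Ctnna3, Vcl, Gja1 and Tjp1. The hearts came from C57BL/6 mice aged 2 months. The 3 knockout (KO) mice had the genotype SRSF4flox/flox;NKx2.5-Cre, in which Cre recombinase under the control of the cardiac gene Nkx2-5 deletes the floxed gene. The 3 controls were SRSF4flox/flox without Cre, so the floxed alleles were common to both groups, and effects of Cre itself cannot be told apart from those of the deletion. Nkx2-5 itself was 1.93-fold lower in KO hearts, at 19.7 ± 1.13 against 38.1 ± 1.75 counts scaled to library size (CPM, edgeR adjusted p = 0.000652), so a lower level of this cardiac transcription factor went with the genotype, and its part in the values below was not tested. Each library came from a different heart. The KO libraries carry one prefix in their library codes and the controls another, so a library batch cannot be told apart from genotype in any comparison below.

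The intercalated disc is the end-to-end contact between heart muscle cells. Desmosomes hold the cells together by cadherins (desmoglein 2 and desmocollin 2) whose tails are tied through plakoglobin, plakophilin 2 and desmoplakin to intermediate filaments. Adherens junctions do the same for actin through N-cadherin, catenins and vinculin, and gap junctions of connexin 43, held in place with the scaffold ZO-1, pass the electrical impulse from cell to cell. In the heart the first 2 kinds of contact mix in a hybrid structure in which alpha-T-catenin binds plakophilin 2, and mutations of its genes are a known cause of arrhythmogenic cardiomyopathy in humans.

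Levels are given as CPM, read counts scaled to the size and composition of each library (TMM factors), with the mean ± SD over 3 hearts of a group. A gene was called changed at an adjusted p under 0.05 in edgeR's quasi-likelihood test, adjusted over the 12686 genes that passed the filter on low counts. All 10 members passed that filter, with 720 to 62794 counts in any library, and together they took 0.166% to 0.206% of a library's counts. Library totals ran from 59810975 to 74941323 counts. The targeted gene followed the labels: Srsf4 had 10.8, 10.1 and 8.39 CPM in KO hearts 1 to 3 and 22.1, 23.5 and 23.7 CPM in controls 1 to 3, 2.36-fold lower (edgeR adjusted p = 0.000881). KO 1 stood apart from the other KO hearts, with a median absolute difference over all tested genes of 0.252 from KO 2 and 0.245 from KO 3 on the log2 scale, against 0.105 between KO 2 and KO 3 and 0.105 to 0.163 between controls. Markers of heart muscle summed to 66876 to 73779 CPM in KO hearts, where controls had 70649 to 72293 CPM, and none of the 10 was called. Fibroblast markers summed to 349.6 CPM in KO 1 and to 568 to 709 CPM in the other 5 hearts, and endothelial markers to 419 CPM in KO 1 and 545 to 665 CPM in the others. The summed smooth muscle and pericyte markers were 452 to 565 CPM in KO hearts, where controls had 622 to 717 CPM. Several members, among them Vcl, Tjp1, Cdh2 and Gja1, are also known from these other cell types. In RNA of heart tissue, fewer cells of a type and less RNA per cell cannot be told apart.

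None of the 10 junction genes was called changed in the KO hearts, where 6.03% of all tested genes were (edgeR, 0 of 10 members, 765 of 12686 genes). Over all genes 417 calls were higher and 348 lower, or 274 and 889 with total counts alone as the scaling. Before adjustment 1 of the 10, Dsc2, had p under 0.05 in edgeR, against 21.5% of all genes. DESeq2 called none of the 10 and 11.6% of all genes, limma-trend none and 6.03%, and limma voom with sample weights 2 and 27.9%. The log2 fold changes of the members lay between -0.14 for Jup and 0.40 for Ctnna3, 7 above 0 and 3 below (4 and 6 with total counts alone as the scaling), with a median of 0.12 against -0.0032 over all tested genes. Their median size without regard to sign, 0.14, was close to the 0.15 of all genes. In 1 of the 10 the KO and control values did not overlap, as in 27.2% of all tested genes. The 95% intervals of all 10 lay inside a 2-fold change in either direction, and those of 7 inside a 1.5-fold change; Ctnna3, Vcl and Dsc2 were the exceptions, and all 3 intervals ran past 1.5-fold on the higher side. In the authors' deposited table, too, no member was below an adjusted p of 0.312.

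**Figure D1:**
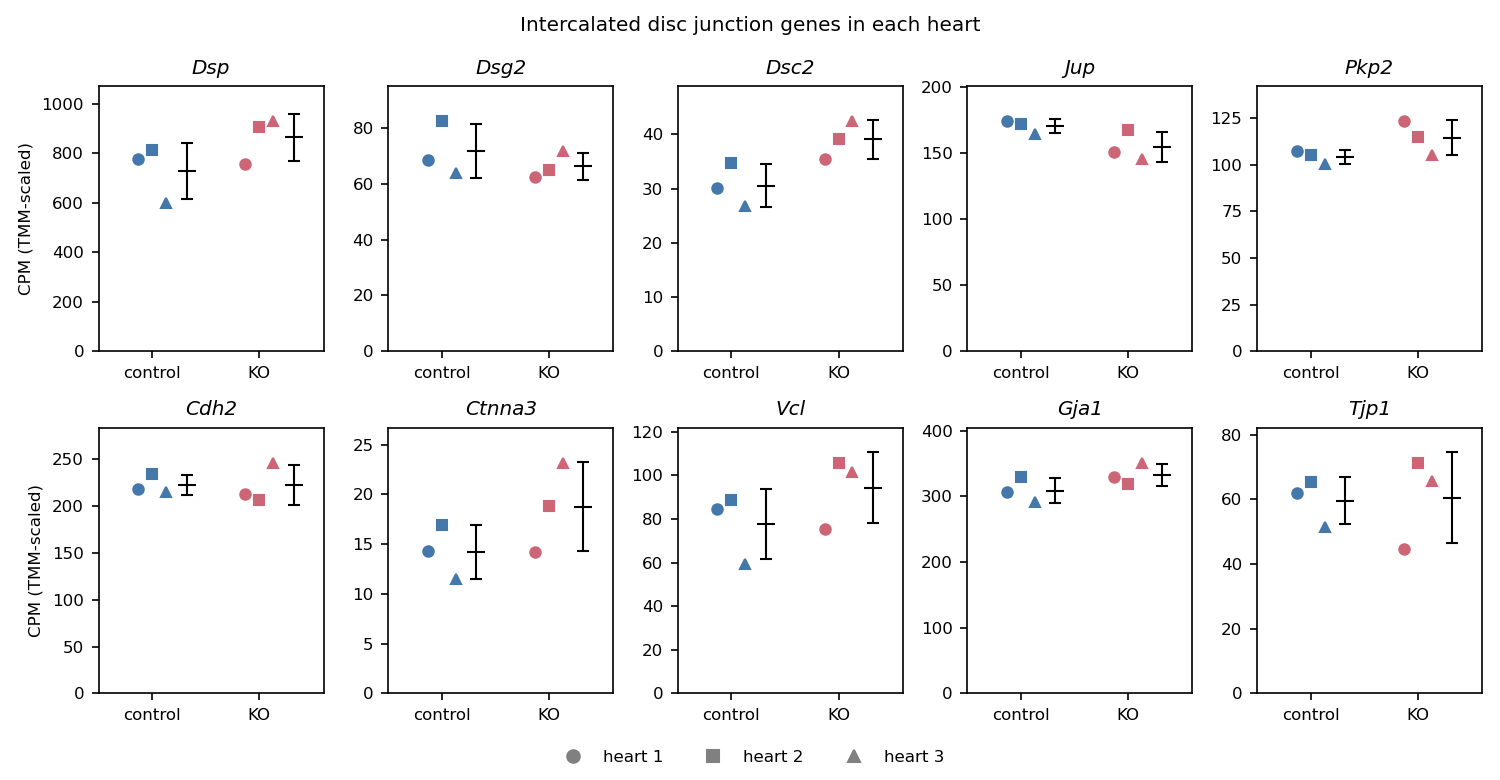
Level in CPM (vertical axis, from 0, with its own scale in each panel) of the 10 junction genes in 3 control hearts (blue) and 3 KO hearts (red). The marker shape gives the heart number and the black bar the mean ± SD. Dsc2 is the gene whose 3 KO values all lie above the 3 control values.

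The desmosomal cadherins, which reach across the gap between cells, had log2 fold changes of opposite sign, and neither was called. Dsc2 (ENSMUSG00000024331, chromosome 18, 20030633 to 20059554, GRCm38, minus strand), encoding desmocollin 2, had 35.5, 39.2 and 42.5 CPM in KO hearts 1 to 3 and 30.2, 34.7 and 26.8 CPM in controls 1 to 3. Every KO heart was above every control, the nearest pair being KO 1 and control 2. Its log2 fold change was 0.35 (standard error, SE, 0.12; 95% interval 0.082 to 0.62), which did not pass after adjustment (edgeR adjusted p = 0.133). Dsg2 (ENSMUSG00000044393, chromosome 18, 20558074 to 20604521, plus strand), encoding desmoglein 2, had 62.4, 64.8 and 71.6 CPM in KO hearts and 68.6, 82.5 and 63.7 CPM in controls. The groups overlapped, with control 2 the highest heart and KO 1 the lowest (log2 fold change -0.11, 95% interval -0.38 to 0.15, edgeR adjusted p = 0.637). The sign for Dsg2 rested on control 2, since the log2 fold change was 0.0041 without that heart.

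The levels of these partners were also set against each other within each heart, a comparison picked after the levels had been seen. Per kilobase of the longest listed transcript, the ratio of Dsc2 to Dsg2 was 0.707, 0.754 and 0.739 in KO hearts 1 to 3 and 0.548, 0.524 and 0.524 in controls 1 to 3. The means were 0.733 ± 0.0236 and 0.532 ± 0.0140 (SD, n = 3 each), a difference of 0.46 on the log2 scale, and KO 1 lay with the other KO hearts. With 3 hearts a group an exact two-sided permutation test cannot go below p = 0.1, which is what it gave, and 0.4 after adjustment over the 6 ratios tested. Among all 45 pairs of members the KO and control ratios did not overlap in 14 (31.1%). The pairs reuse the same members, and the share among pairs of other genes was not computed, so this count has no background here. Of the 45 pairs Dsc2 and Dsg2 had the largest difference relative to the spread. So the ratio is given as a description and did not pass. Within groups Dsc2 and Dsg2 moved together from heart to heart (Pearson r = 0.96 over 6 hearts after removal of the group means, given as a description). A ratio within a heart does not depend on how libraries are scaled, but it does not say which of the partners changed. The longest listed Dsg2 transcript has 330 bases (5.72%) in common with the antisense gene Gm16090 on the opposite strand. The use of strand in counting is not given in the sources used here, so Dsg2 counts may hold its reads.

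**Figure D2:**
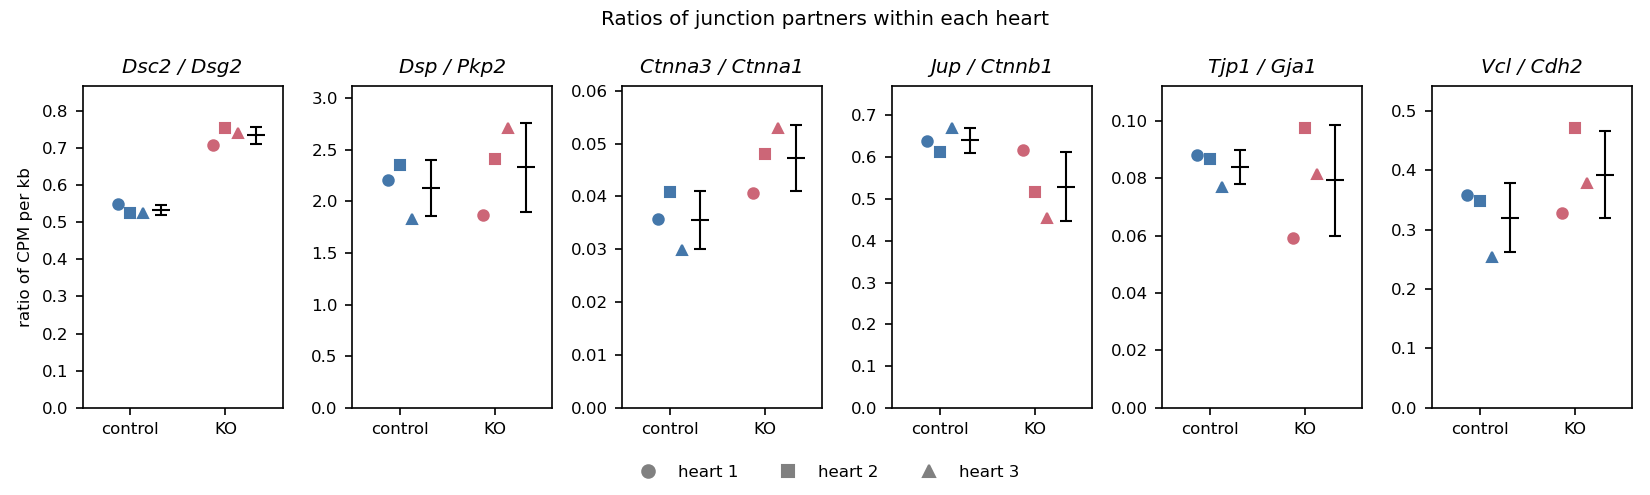
Ratio of CPM per kilobase (vertical axis, from 0) within each heart for 6 pairs of junction genes, with controls in blue, KO hearts in red, and black bars for the mean ± SD over 3 hearts. For Dsc2 over Dsg2 the 3 KO hearts lie between 0.707 and 0.754 and the 3 controls between 0.524 and 0.548, whereas the groups overlap in the other 5 panels.

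The RNAs of the desmosomal plaque proteins did not pass the test either, and their groups overlapped. Dsp (ENSMUSG00000054889, chromosome 13, 38151328 to 38198577, plus strand) encodes desmoplakin, which ties the plaque to intermediate filaments. It had 756, 905 and 932 CPM in KO hearts and 776, 814 and 600.1 CPM in controls. KO 2 and KO 3 were above all 3 controls, KO 1 was below controls 1 and 2, and control 3 was the lowest heart (log2 fold change 0.24, 95% interval -0.086 to 0.57, edgeR adjusted p = 0.377). Jup (ENSMUSG00000001552, chromosome 11, 100368958 to 100397763, minus strand) encodes plakoglobin, a relative of beta-catenin that serves both desmosomes and adherens junctions. Its levels were 151, 168 and 146 CPM in KO hearts and 175, 172 and 165 CPM in controls, with KO 2 inside the control range and the other KO hearts under it (log2 fold change -0.14, 95% interval -0.34 to 0.057, edgeR adjusted p = 0.396). Relative to Ctnnb1, the gene for beta-catenin, Jup had a ratio per kilobase of 0.617, 0.518 and 0.455 in KO hearts and 0.639, 0.612 and 0.670 in controls (exact permutation test, p = 0.2). Pkp2 (ENSMUSG00000041957, chromosome 16, 16213318 to 16272712, plus strand), encoding plakophilin 2, had 124, 115 and 105 CPM in KO hearts and 107, 105 and 100.2 CPM in controls. KO 1, the lowest KO heart for 6 of the 10 members, was the highest of all hearts for Pkp2 (log2 fold change 0.13, 95% interval -0.068 to 0.33, edgeR adjusted p = 0.433).

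The RNA for N-cadherin did not differ between the groups by more than their spread. Cdh2 (ENSMUSG00000024304, chromosome 18, 16588877 to 16809246, minus strand), which encodes this main cadherin of heart adherens junctions, had 213, 207 and 246 CPM in KO hearts and 218, 234 and 215 CPM in controls. The group means were 222 ± 21.3 and 222 ± 10.3 CPM, with a 95% interval of the log2 fold change from -0.22 to 0.22 (edgeR adjusted p = 0.992). Ctnna3 (ENSMUSG00000060843, chromosome 10, 63430098 to 65003667, plus strand), encoding alpha-T-catenin, is the catenin that is largely restricted to heart and testis. It had 14.2, 18.8 and 23.2 CPM in KO hearts and 14.3, 16.9 and 11.5 CPM in controls. KO 2 and KO 3 were above all controls and KO 1 was level with control 1 (log2 fold change 0.40, 95% interval -0.077 to 0.87, edgeR adjusted p = 0.314). Its broadly expressed relative Ctnna1 was far more abundant, at 399 ± 44.5 and 405 ± 15.7 CPM, and did not pass either (edgeR adjusted p = 0.936). The ratio of Ctnna3 to Ctnna1 per kilobase was 0.0472 ± 0.00621 in KO hearts and 0.0355 ± 0.00547 in controls, with overlap (exact permutation test, p = 0.2). Vcl (ENSMUSG00000021823, chromosome 14, 20929433 to 21033673, plus strand), encoding the actin linker vinculin, had 75.6, 106 and 101 CPM in KO hearts and 84.8, 88.8 and 59.4 CPM in controls. The groups overlapped through KO 1 (log2 fold change 0.28, 95% interval -0.15 to 0.71, edgeR adjusted p = 0.438). The longest listed Vcl transcript has 2090 bases (39.7%) in common with exons of Ap3m1 on the opposite strand in GENCODE M21. The use of strand in counting is not given in the sources used here, so Vcl counts may hold Ap3m1 reads. Ap3m1 itself had 49.7 ± 3.52 CPM in KO hearts, where controls had 43.9 ± 0.285 CPM (edgeR adjusted p = 0.231).

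The gap junction gene and its scaffold also kept within the spread between hearts. Gja1 (ENSMUSG00000050953, chromosome 10, 56377300 to 56390419, plus strand) encodes connexin 43, the main connexin of working ventricular muscle. Its levels were 329, 319 and 351 CPM in KO hearts and 306, 329 and 291 CPM in controls, the smallest relative spread of the 10 genes in KO hearts (4.98% of the mean). Control 2 lay above KO 2 and just below KO 1 (log2 fold change 0.11, 95% interval -0.092 to 0.31, edgeR adjusted p = 0.528), which leaves a rise of up to 1.24-fold inside the interval. Tjp1 (ENSMUSG00000030516, chromosome 7, 65296165 to 65371239, minus strand), encoding ZO-1, had 44.5, 71.3 and 65.7 CPM in KO hearts and 61.8, 65.4 and 51.4 CPM in controls. KO 1 was the lowest heart and KO 2 the highest, so that the KO values enclosed all 3 controls (log2 fold change 0.023, 95% interval -0.40 to 0.44, edgeR adjusted p = 0.965).

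**Figure D3:**
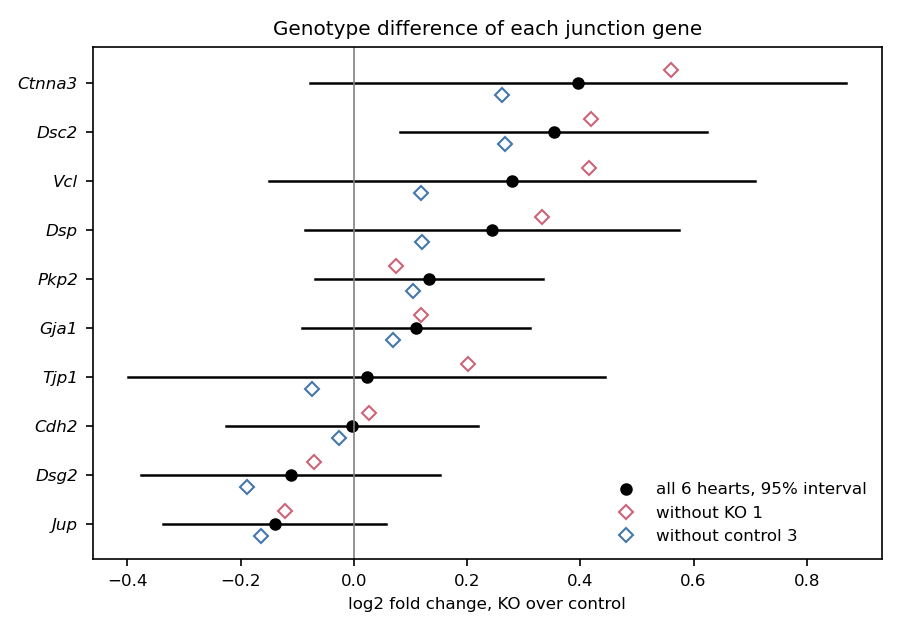
Log2 fold change of KO over control (horizontal axis) for each junction gene from all 6 hearts (black point) with its 95% interval (line), and the value without KO 1 (red diamond) or without control 3 (blue diamond). All lines but that of Dsc2 cross 0, and without KO 1 the values of Ctnna3 and Dsc2 are 0.56 and 0.42.

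Set by level per length, the junction genes kept nearly the same order in both groups. In controls connexin 43 led, at 100.5 ± 6.22 CPM per kilobase, followed by Dsp (76.1 ± 11.9), Jup (53.2 ± 1.58), Cdh2 (45.9 ± 2.13) and Pkp2 (35.6 ± 1.28), and these 5 did not overlap with their neighbours in the order. Then came Vcl (14.7 ± 3.03), Dsg2 (12.4 ± 1.69), Tjp1 (8.45 ± 1.03), Dsc2 (6.60 ± 0.858) and Ctnna3 (3.87 ± 0.740 CPM per kilobase). Neighbours whose control values overlapped were Vcl with Dsg2 and Tjp1 with Dsc2. In KO hearts the order was the same, but Jup (48.3 ± 3.59) then overlapped with Cdh2 (45.8 ± 4.41), Tjp1 still overlapped with Dsc2, and Vcl no longer overlapped with Dsg2. The order depends on the length used. Over all annotated exons in place of the longest listed transcript, Dsp had 75.6 and Gja1 30.1 CPM per kilobase in controls. Cdh2 then had 27.6, above Jup at 26.5, and Pkp2 had 19.5 CPM per kilobase.

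The heart-to-heart spread was largely common to most of the set. Control 3 was the lowest control for all 10 members, whereas over all tested genes it was the lowest control for 38.3%. KO 1 was the lowest KO heart for 6 members (43.8% of all genes). Dsp and Vcl followed each other most closely (Pearson r = 0.98 over 6 hearts after removal of group means), and the median over the 45 pairs of members was 0.58. Pkp2 had r below 0 with every member but Jup (0.40), down to -0.59 with Cdh2. Jup was mixed, from -0.60 with Cdh2 to 0.50 with Tjp1 and with Vcl. These correlations are descriptions of 6 libraries that share normalization, and carry no test. The same median over pairs of other genes was not computed, so the pattern is not shown to be particular to the junction genes. In KO 1 the low fibroblast and endothelial marker sums went with low Tjp1, Vcl and Ctnna3, and their part in those values was not tested. In control 3 those sums were 624 and 569 CPM, at or above the middle of the controls.

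**Figure D4:**
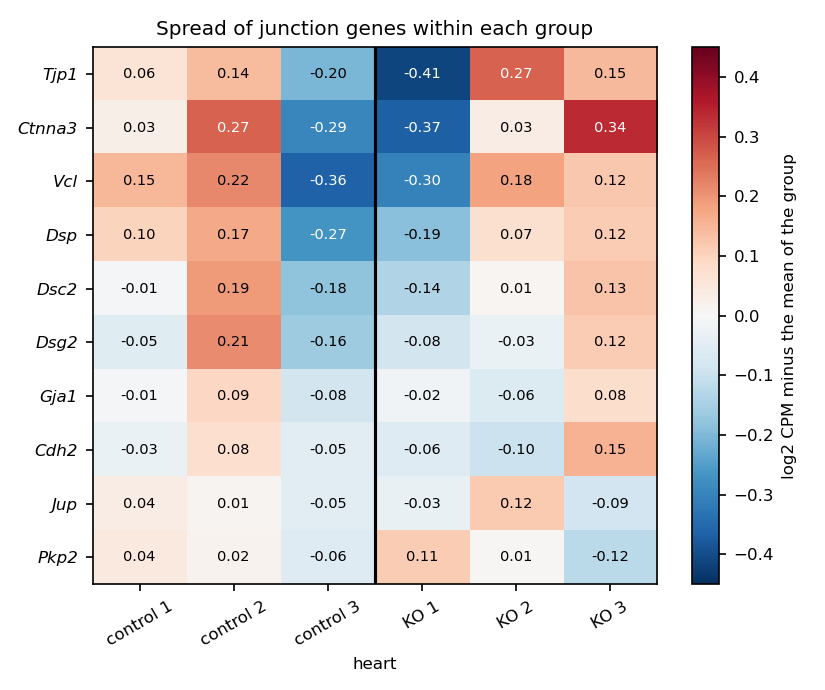
Difference of log2 CPM from the mean of the heart's own group (colour and printed value) for 10 junction genes (rows) in 6 hearts (columns, controls left of the line). Control 3 is below its group mean in all 10 rows, and KO 1 falls lowest in Tjp1, at -0.41.

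Without KO 1, 2 of the 10 members were called, both higher, where 22.8% of all genes were (edgeR). They were Dsc2, with a log2 fold change of 0.42 (edgeR adjusted p = 0.0256), and Ctnna3, with 0.56 (edgeR adjusted p = 0.0408). The same pair was called by limma voom with sample weights (adjusted p = 0.00977 and 0.0234), where 27.9% of all genes were. Dropping any of the other 5 libraries left no member called.

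Genes whose profile over the 6 hearts was most like the mean standardized profile of the 10 members were Slco5a1, a solute carrier (Pearson r = 0.999), Plekhm3 (0.997), Gbf1, an exchange factor of Golgi traffic (0.995), the autophagy gene Atg2b (0.994) and Papd5, a poly(A) polymerase (0.993). None of the 5 was called, and they are the closest of 10367 genes searched over 6 hearts. Closest to Gja1 alone were Impact (0.990), Phtf2 (0.990) and Prkrir (0.988).

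Promoter sequence is shown for Dsp and Vcl, the pair that followed each other most closely. It is also shown for Gja1, the member with the highest level per kilobase of the longest listed transcript. Each is the 250 bases before the transcription start in RefSeq (GRCm38.p6), 5′ to 3′ on the strand of the gene, and capitals mark matches to any of 6 motifs described after them. They lie at chr13:38151044-38151293 (Dsp), chr14:20929148-20929397 (Vcl) and chr10:56377050-56377299 (Gja1), all on the plus strand.
Dsp promoter: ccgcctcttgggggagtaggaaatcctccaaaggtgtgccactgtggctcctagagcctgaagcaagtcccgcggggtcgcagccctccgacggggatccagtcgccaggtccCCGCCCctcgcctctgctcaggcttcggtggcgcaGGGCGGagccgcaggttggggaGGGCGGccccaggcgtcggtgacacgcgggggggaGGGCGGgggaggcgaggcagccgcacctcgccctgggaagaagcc
Vcl promoter: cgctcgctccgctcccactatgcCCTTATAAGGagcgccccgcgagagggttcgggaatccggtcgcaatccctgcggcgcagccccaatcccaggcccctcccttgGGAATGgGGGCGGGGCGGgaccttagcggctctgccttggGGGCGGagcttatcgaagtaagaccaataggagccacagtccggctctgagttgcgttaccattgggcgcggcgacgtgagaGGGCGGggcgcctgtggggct
Gja1 promoter: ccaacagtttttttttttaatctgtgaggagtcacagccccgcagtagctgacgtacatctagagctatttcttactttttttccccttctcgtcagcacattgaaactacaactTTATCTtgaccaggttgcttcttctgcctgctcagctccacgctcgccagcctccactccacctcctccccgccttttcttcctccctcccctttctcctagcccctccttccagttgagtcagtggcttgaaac
The Dsp window holds 4 matches to the SP1 motif GGGCGG, as does the Vcl window, where 2 of the 4 overlap by 1 base. Windows of Ctnna3, Jup and Tjp1 hold the SP1 motif too, so that 5 of the 8 member windows searched have it. Over all 32851 promoter windows of this length 32.7% hold one. The Vcl window also holds a CArG box, the site of serum response factor, at -227 to -218 from the start, a motif present in 1.47% of all windows. The TEAD motif GGAATG (12.6%) lies at -143 to -138 in the Vcl window and is also in a Ctnna3 window. G and C make up 72.4% of the Dsp window and 67.2% of the Vcl window, against a median of 52.4% over all windows. The Gja1 window holds no SP1 match and 1 match to the GATA motif AGATAA at -135 to -130 (9.99%). Neither the NKX2-5 motif TNAAGTG (10.1% of all windows) nor the MEF2 motif (CTA, any 4 bases, TAG; 3.20%) is in any of the 8 windows of the 6 members with an entry used here. Both strands were searched. A match is a run of letters in the window and not a measured site.

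Beyond the 10 members, 108 tested genes of 8 lists around the junction were read from the same test, and 7 (6.48%) were called, 4 higher and 3 lower, against 3.29% higher and 2.74% lower over all genes. Of the 7, 6 are described here. Over all 108 genes the median log2 fold change was 0.036. Before adjustment 22 of the 108 had p under 0.05 in edgeR, where 21.5% of all genes did. Of 6 other desmosome and desmin-linked genes none was called, and 3 had p under 0.05 in edgeR before adjustment. Perp, a membrane protein of desmosomes, had 141 ± 10.3 against 114 ± 4.79 CPM, and Ppl, encoding periplakin, 5.12 ± 0.293 against 6.75 ± 0.267 CPM (edgeR adjusted p = 0.0864 and 0.0564). Without KO 1 both were called, Perp higher and Ppl lower (edgeR adjusted p = 0.0118 and 0.0293), as they were with DESeq2 (adjusted p = 0.00891 and 0.0153). Of 14 other genes of cadherin and catenin adhesion none was called, and 1 had p under 0.05 in edgeR before adjustment. That was Cdh4, encoding R-cadherin, with 0.788, 5.76 and 1.97 CPM in KO hearts and 0.683, 0.645 and 0.399 CPM in controls (edgeR adjusted p = 0.106). KO 2 decides its size, with a log2 fold change of 2.29 from all hearts and 1.251 without KO 2. Cdh4 was called without KO 1 (edgeR adjusted p = 0.0156), with DESeq2 (adjusted p = 0.00192) and with limma voom (adjusted p = 0.0148). Next by p was Mllt4, encoding afadin, at 53.9 ± 8.21 against 63.5 ± 2.70 CPM (edgeR adjusted p = 0.291).

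Of 6 other connexin and pannexin genes 1 fell. Gjc1 (chromosome 11, 102799579 to 102819700), encoding connexin 45, a connexin of the conduction system and of vascular smooth muscle, had 11.02, 12.6 and 12.8 CPM in KO hearts and 17.1, 17.0 and 16.5 CPM in controls. All KO hearts were below all controls, 1.39-fold on average (log2 fold change -0.47, SE 0.087, edgeR adjusted p = 0.0221). The conduction system markers, summed over the 5 measured, were 11.96 to 16.5 CPM in KO hearts, where controls had 21.2 to 28.4 CPM. All 5 had log2 fold changes below 0, and Hcn4 was called. Only Hcn4 and Cntn2 had no overlap between the groups. Tbx3, Gja5 and Cacna2d2 overlapped (edgeR adjusted p = 0.570, 0.891 and 0.513). Of the 8 smooth muscle and pericyte markers all had log2 fold changes below 0, and Acta2 was called, at 53.8 ± 2.83 against 109 ± 19.1 CPM (edgeR adjusted p = 0.00547). The part of either cell type in the Gjc1 value was not tested. Gja5 and Gja4, connexins of atria, conduction system and arteries, did not pass (edgeR adjusted p = 0.891 and 0.567).

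Of 9 genes of the zonula occludens group 1 rose. Cxadr (chromosome 16, 78301496 to 78359785) encodes the coxsackievirus and adenovirus receptor, an adhesion protein of the disc known to bind ZO-1. It had 40.0, 35.5 and 45.7 CPM in KO hearts and 26.9, 27.1 and 23.2 CPM in controls, 1.57-fold higher (log2 fold change 0.65, SE 0.11, edgeR adjusted p = 0.0186), with no overlap between the groups. Its longest listed transcript has 418 bases (7.28%) in common with Btg3 on the opposite strand, and Btg3 had 0.387, 6.28 and 5.67 CPM in KO hearts, where controls had 7.03 ± 0.718 CPM, lower than Cxadr in every heart.

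Among the channels and scaffolds of the disc Popdc3 (chromosome 10, 45178098 to 45318452), of the popeye family of cyclic AMP-binding membrane proteins, rose. It had 17.1, 19.0 and 17.2 CPM in KO hearts and 13.6, 13.1 and 12.3 CPM in controls, with no overlap, 1.37-fold higher (edgeR adjusted p = 0.0235). The longest listed Popdc3 transcript has 120 bases (6.48%) in common with the antisense gene Gm15934 on the opposite strand, so Popdc3 counts may hold its reads.

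Of the 23 tested genes of the filament linker list, which also holds the caveola gene Murc, 1 rose and 1 fell. Pdlim3, which encodes an alpha-actinin-associated LIM protein, had 2.97, 4.17 and 3.67 CPM in KO hearts and 8.86, 9.88 and 9.36 CPM in controls, 2.60-fold lower (log2 fold change -1.38, SE 0.14, edgeR adjusted p = 0.00165). Murc, which encodes cavin-4 of muscle caveolae, had 81.0, 95.8 and 91.8 CPM in KO hearts and 60.0, 60.6 and 61.2 CPM in controls, 1.48-fold higher (edgeR adjusted p = 0.00906). None of 21 costamere and integrin genes was called, and 3 had p under 0.05 in edgeR before adjustment. The smallest p belonged to Sgcd, encoding delta-sarcoglycan, at 13.7 ± 2.96 against 9.02 ± 1.73 CPM, and Lims2, a partner of integrin-linked kinase, at 35.1 ± 2.75 against 43.5 ± 5.80 CPM (edgeR adjusted p = 0.124 and 0.173). Without KO 1 Sgcd was called (edgeR adjusted p = 0.00879), as it was with DESeq2 (adjusted p = 0.0313). Of 15 regulators 1 fell, Ywhaz, encoding a 14-3-3 adaptor protein, from 59.7 ± 2.01 to 44.7 ± 3.38 CPM (1.33-fold, edgeR adjusted p = 0.0275). This value is uncertain, because the predicted gene Gm4202 on chromosome 3 matches Ywhaz at 99.9% identity over 733 bases and had 6.43 ± 1.34 against 0.268 ± 0.359 CPM. The sum of the pair was 51.1 ± 4.72 CPM in KO hearts, where controls had 59.9 ± 2.20 CPM.

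**Figure D5:**
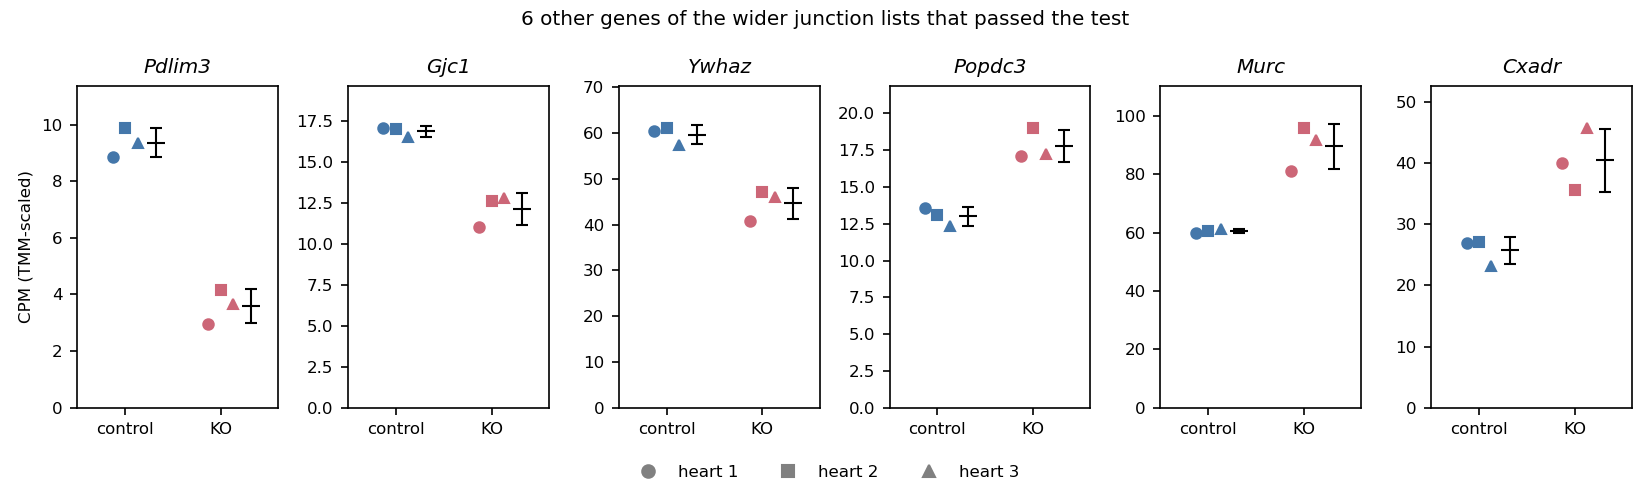
Level in CPM (vertical axis, from 0) of 6 other junction-related genes that passed the test, in 3 control hearts (blue) and 3 KO hearts (red), with the mean ± SD as black bars. In each panel the groups do not overlap, with Pdlim3, Gjc1 and Ywhaz lower and Popdc3, Murc and Cxadr higher in KO hearts.

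Pdlim3 kept its call whichever of the 6 libraries was dropped (edgeR adjusted p up to 0.0128). Murc lost its call without control 1 or 2, and Cxadr kept it only without KO 1 or KO 2. Among the 6 fits that each drop a library, the calls of Gjc1, Popdc3 and Ywhaz held only in the one without KO 1 (edgeR adjusted p up to 0.121, 0.111 and 0.143 in the others). Popdc3 also lost its call with total counts alone as the scaling (edgeR adjusted p = 0.0657). Without KO 1, 34 of the 108 genes (31.5%) were called, 26 higher and 8 lower, where 22.8% of all genes were.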

How the data were processed

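Poly(A)-selected libraries were made from column-purified RNA of saline-perfused, frozen hearts, per the labels' protocols. Cutadapt, Picard, RSEM 1.17, edgeR and GRCm38 are named in the submitters' processing notes, without their roles. Which aligner, annotation release and strand setting were used is not given in the sources used here. Per the file headers the authors deposited raw values, taken as estimated counts that had been rounded. They also deposited normalized values, which are a signal proportional to those counts within each library. The authors' deposited comparison gives each gene a log2 fold change, a fold change with its sign (a score), a p-value and an adjusted p-value.

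The counts went into edgeR 4.0.16 (R 4.3.3) without change. Libraries were scaled with TMM factors, 138 genes fell to filterByExpr, and a robust quasi-likelihood model of genotype with no covariate was fitted to 6 libraries, with Benjamini-Hochberg adjustment. Standard errors come from the log2 fold change and its F statistic, and 95% intervals from the moderated degrees of freedom. Log2 CPM has a prior count of 2. Transcript lengths and overlapping genes come from GENCODE M21, and near copies were sought with blastn 2.17.0 (at least 90% identity over 200 bases). The fit was tested on simulated data, where most changes of small size were not called and unchanged genes made up more of the calls than the nominal rate. DESeq2 1.42.0, limma 3.58.1, other scalings, filters, a block and leaving out each library were alternatives.

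The members, the lists and the ratios were chosen with earlier results of these data known. Besides the members and Srsf4, named genes are the called genes of each junction list (up to 6), or its 2 with the smallest p where none was called, up to 2 called genes of each marker list, and the genes most alike in profile. Called genes of the marker lists named by that rule are Hcn4, Acta2 and Stard10 (an atrial marker, 9.23 ± 0.504 against 16.1 ± 0.503 CPM, edgeR adjusted p = 0.00167). Of the 7 atrial markers listed, Sln, Myl7 and Bmp10 were absent from the deposited table, and the 4 measured had log2 fold changes below 0. The amount of atrial tissue in each sample was not tested. Nkx2-5, the genes compared as ratios, and Gja5 and Gja4, were added after their values were seen. Some genes of the lists are not reported here. Each library is from a separate heart, so the spread is between animals.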

Additional observations from a re-analysis of the deposited data

How the results depend on the processing

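No member was called with RLE, upper-quartile, total-count or the authors' factors, with DESeq2, limma-trend, either other filter, the replicate block or an adjusted p of 0.01. With limma voom 2 were called, and leaving out a library gave 0 to 2 members, 2 to 34 of the wider junction genes, and 288 to 2896 of all genes (154 to 1567 higher, 130 to 1329 lower). Of all genes 1468 were called with DESeq2 (833 higher, 635 lower), 3538 with voom (1865, 1673), 1163 with total counts (274, 889), 505 with the replicate block (261, 244) and 291 at 0.01 (159, 132). Wider junction genes numbered 15 with DESeq2, 38 with voom and 3 at 0.01. Total counts put 23.6% of calls on the higher side in place of 54.5% and moved the median of all genes to -0.14 and that of the members to -0.017, or 0.12 above it. With total counts Pkp2 reached -0.0044, Gja1 -0.029 and Tjp1 -0.11. Cdh2, near 0, turned to 0.0020 with RLE or DESeq2 and to 0.041 with voom. Leaving out a library gave Cdh2 -0.084 to 0.045, Dsg2 -0.19 to 0.0041 and Tjp1 -0.11 to 0.20. The cause was not tested. Cdh4 had no value under the CPM filter. Same-numbered hearts were not paired by their deviations (r = -0.064, 0.15 and -0.26), so the block only shares a number. Under it Gjc1, Popdc3 and Ywhaz had edgeR adjusted p = 0.0688, 0.0738 and 0.0754. Members had at least 720 counts a library, and the biological coefficient of variation over all genes was 13.6%.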
